A study of Mus musculus with 24 samples.

Results

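The response of the mouse heart to pressure overload was set against its response to exercise, gene by gene, by taking the effect of transverse aortic constriction (TAC) and subtracting from it the effect of wheel running. TAC is a surgical narrowing of the aorta that makes the left ventricle pump against a raised pressure. The quantity tested was (TAC minus sham) minus (running minus sedentary), which used 16 of the 24 libraries of the study, 4 in each of 4 groups. The libraries were chosen by their labels alone: hearts of mice 2 weeks after TAC, hearts of sham-operated mice marked with the same term LVH, hearts of mice with 8 weeks of running and hearts of sedentary mice. All were C57BL/6 mice, and total RNA of the heart was sequenced after removal of ribosomal RNA. The groups share no other treatment, and no transgene or deletion is named. Sex, age, hour of collection and, for sham, the time since surgery are missing from the labels. The duration of the 2 treatments differed and each had its own controls, so a duration cannot be told apart from a kind of load. No control library served both effects. The labels do not say that replicates came from separate animals or litters, so p-values measure the spread between these samples, which may be technical in part.

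Growth of the heart under pressure and growth with exercise both enlarge cardiomyocytes. In rodents, pressure overload is known for the return of genes of the fetal heart, for deposition of matrix by fibroblasts, and for a shift away from the oxidation of fatty acids. Exercise growth is known for signalling through insulin-like growth factor 1, phosphoinositide 3-kinase and Akt, with little fibrosis. The heart also has a circadian clock, in which Arntl (Bmal1) and Clock drive the genes of their own repressors, and many metabolic genes of the heart follow it.

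Library totals of the 16 hearts ranged from 16802939 to 39512101 estimated counts (median 24952102), and 5949640 to 12932067 of these fell outside mitochondrially encoded genes. Genes with at least 1 count numbered 18646 to 20712 per library. The labelled tissue was checked with its defining markers. The summed level of 10 cardiomyocyte markers was between 35700 and 61230 CPM (counts scaled to a common library total) in every library. Tested markers of lymphocytes (2) and of mesothelium (2) summed to at most 1.199 and 3.853 CPM in any library. Levels below are CPM after TMM scaling over the 16 libraries, given in the order of replicate number, to which the labels give no other meaning. An effect is a log2 ratio of fitted group means, and a difference of effects is the TAC effect minus the running effect on that scale. A positive difference therefore means that a transcript stood higher after TAC, against sham, than after running, against sedentary.

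Of 14729 genes tested, 2807 (19.1%) had a difference of effects past an adjusted p of 0.05 (edgeR quasi-likelihood test, Benjamini-Hochberg over all genes). The difference was positive in 1399 (9.5%) and negative in 1408 (9.56%). It was 2-fold or more in 1124 of them (725 positive, 399 negative) and 4-fold or more in 268 (211 positive, 57 negative). The TAC effect was called in 4736 genes (32.2%), 2371 higher and 2365 lower (16.1% each). The running effect was called in 1 gene (0.00679%), Pik3ip1, with 829 genes (5.63%) at an unadjusted p under 0.05 and 10 genes called by DESeq2. With library totals in place of TMM factors, the median difference of all genes moved from -0.017 to 0.478, and the calls became 4506 positive and 214 negative. Directions of gene groups are therefore given relative to the median of all genes. A change of scaling shifts all genes by about the same amount, so it leaves that distance almost unchanged by construction. Counts of called list members below stand beside the shares of all genes, 9.5% positive and 9.56% negative.

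Most called differences came with a called TAC effect and no called running effect. In 2659 of the 2807 genes (94.7%) the TAC effect was called and the running effect was not. The median size of their TAC effect was 0.78 on the log2 scale and that of their running effect 0.11. The running effect had an unadjusted p under 0.05 in 231 of them (edgeR). For Arntl, in this class, the running estimate (-2.58) was larger in size than the TAC effect (1.85). In 147 genes (5.24%) the difference was called although neither effect was. There the running effect was the larger of the pair in the median (0.48 against 0.34), and the signs were opposite in 146. With neither effect called, a difference is hardly called unless the signs are opposite, so this count largely follows from the selection. Pik3ip1 was the gene with both effects called, in opposite directions. No gene had a called difference with both effects called in the same direction. For 2076 genes with a called TAC effect the difference was not called.

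Among the called genes the estimated effects had opposite signs in 2060 of 2807 (73.4%), against 7624 of 14729 of all genes tested (51.8%). A difference is larger, and easier to call, where signs are opposite, so this share is a description of the called genes. Across all genes tested the Spearman correlation of the TAC effect with the running effect was -0.08. The running effects estimated in exercise libraries 1 to 4 and in 5 to 8, by the numbers in the labels, correlated at 0.10 over 14716 genes. The median standard error was 0.15 for the TAC effect, 0.16 for the running effect and 0.22 for their difference.

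**Figure D1:**
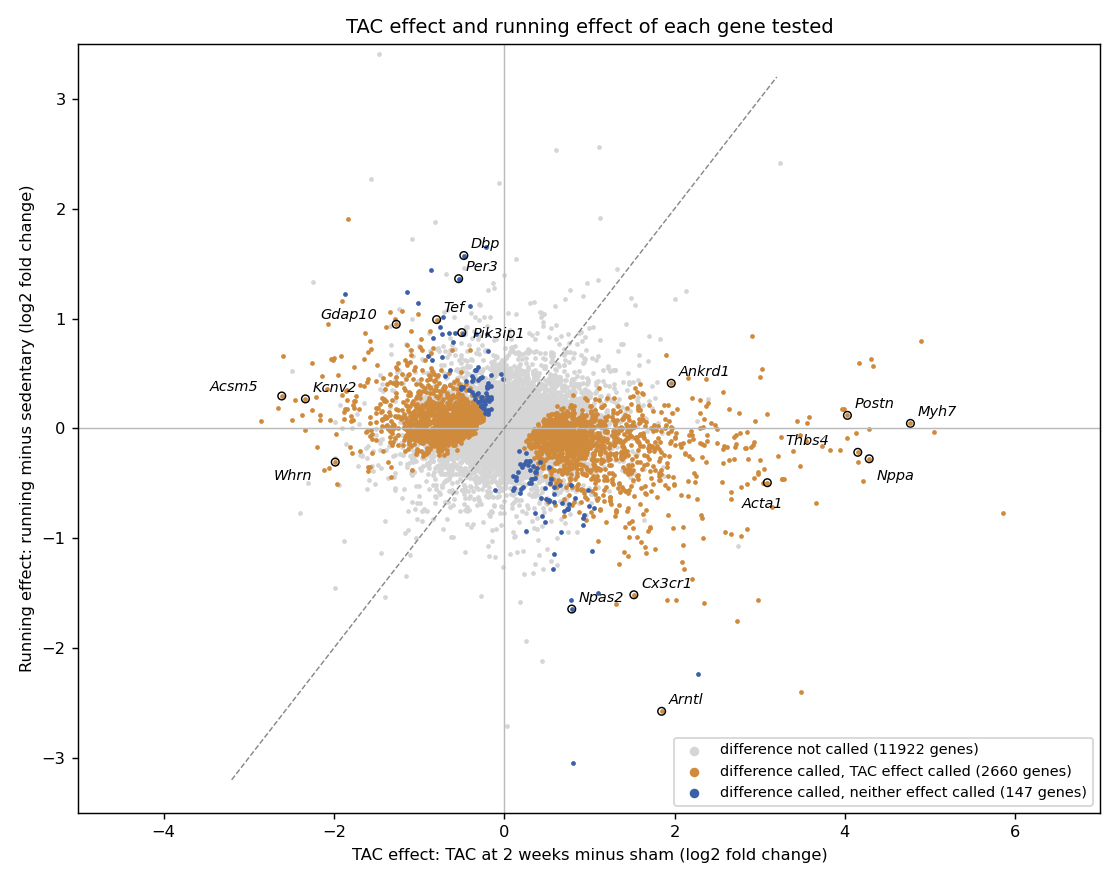
TAC effect (x axis, log2 ratio of TAC at 2 weeks to sham) against running effect (y axis, log2 ratio of running to sedentary), 1 point per gene tested; the dashed line marks equal effects and 7 genes lie outside the axes. Called genes (orange where the TAC effect was called; blue where neither effect was, 147 genes) spread along the x axis, with Arntl, Npas2, Dbp and Per3 far from it.

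Genes of the fetal heart had large positive differences. Myh7 encodes the slow beta myosin heavy chain of the fetal ventricle. Its level was 49.9, 20.7, 24.1 and 25.4 CPM in sham hearts and 1085, 839, 434 and 927 CPM in TAC hearts. It was 69.8, 111, 84.6 and 64.1 CPM in sedentary and 102, 75.7, 79.2 and 83.2 CPM in running hearts. TAC and sham values did not overlap, running and sedentary values did, and all 4 sham values lay below the sedentary ones. Its TAC effect was 4.77, its running effect 0.05 and the difference 4.72 ± 0.44 (SE; adjusted p = 7.52e-06, edgeR). Transcripts antisense to Myh7 (Mhrt and others) overlap it, and the strand setting of the counting is not given in the sources used here.

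Nppa encodes atrial natriuretic peptide, a hormone of the atria and of the strained ventricle. Its level was 20.7, 26.5, 43.8 and 31.5 CPM in sham and 756, 660, 405 and 570 CPM in TAC hearts. Sedentary hearts had 34.4, 47.7, 24.2 and 39.1 CPM and running hearts 28.2, 30.4, 26.6 and 34.9 CPM. The TAC values stood far above all other hearts, which overlapped each other. The difference was 4.56 ± 0.34 (adjusted p = 4.19e-07, edgeR), from a TAC effect of 4.29 and a running effect of -0.28. Nppb, which encodes B-type natriuretic peptide, differed by 2.86 ± 0.46 (adjusted p = 0.000783, edgeR). Its TAC values (193 to 288 CPM) did not overlap those of any other group (21.4 to 68.2 CPM).

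Acta1 encodes skeletal alpha-actin, an actin also expressed in the fetal heart. Its level was 61.2, 75.8, 90.7 and 49.96 CPM in sham and 566, 567, 591 and 638 CPM in TAC hearts, without overlap. Sedentary hearts varied more, at 43.8, 286, 97.5 and 131 CPM, and overlapped running hearts at 83.2, 72.3, 95.8 and 145 CPM. The difference was 3.58 ± 0.62 (adjusted p = 0.00154, edgeR). A gene model on the other strand, Gm20388, overlaps Acta1.

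Of 22 tested genes in a list of fetal and stretch-responsive cardiomyocyte genes, 13 had a positive called difference (59.1%) and 0 a negative one, against 9.5% and 9.56% of all genes. The median difference of the list was 1.08 (all genes -0.017), the median TAC effect 1.132 and the median running effect -0.073. The 4 members with the smallest p were Nppa, Ankrd23, Mybpc2 and Myh7. Ankrd23, a titin-binding stretch-responsive ankyrin repeat protein, differed by 2.01 ± 0.22 and Mybpc2, the fast skeletal form of myosin-binding protein C, by 1.802 ± 0.21 (adjusted p = 5.85e-06 and 6.89e-06, edgeR). A relative of Ankrd23, Ankrd1, the cardiac ankyrin repeat protein, had estimates of the same sign in both settings. Ankrd1 stood at 260, 286, 267 and 361 CPM in sham, 1259, 973, 1063 and 1275 CPM in TAC, 157, 237, 142 and 197 CPM in sedentary and 229, 228, 244 and 274 CPM in running hearts. The TAC effect was 1.96, the running estimate 0.41 (unadjusted p = 0.0108, adjusted 0.786) and the difference 1.55 ± 0.21 (adjusted p = 3.59e-05, edgeR).

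The promoters of the called fetal genes were read from RefSeq (GRCm38.p6), because MCAT elements (CATTCC on either strand) and CArG boxes are the textbook binding motifs of TEAD factors and serum response factor in such genes. All 13 called genes were matched to a promoter. Within the 250 bases before the start, 6 of them held an MCAT element (46.2%), against 14.4% of 27025 genes with a promoter in the table. These were Ankrd23, Mybpc2, Myh7, Ankrd1, Nppb and Acta1. A CArG box lay in 2 of the 13, Fhl1 and Acta1 (1.62% of all genes). An AP-1 site (TGANTCA) lay in 1, Xirp2 (7.82%), and an E-box (CACGTG) or an oestrogen-related receptor element (TCAAGGTCA) in 0 (6.86% and 0.422%).  Among the 12 largest positive differences, 2 of the 9 genes with a promoter held an MCAT element (22.2%). Among the 12 largest negative differences, 1 of 6 did (16.7%). The motifs were searched with the results known, and a match of letters shows neither binding nor cause. The windows below show the matches in the 3 genes with the strongest textbook link to the fetal program, with the motif in capitals and 30 bases on each side.
Acta1, chr8:123894786-123894878, minus strand, CArG box then MCAT: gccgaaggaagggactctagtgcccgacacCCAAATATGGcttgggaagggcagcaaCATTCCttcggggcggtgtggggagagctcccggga
Nppb, chr4:147985765-147985830, plus strand, MCAT: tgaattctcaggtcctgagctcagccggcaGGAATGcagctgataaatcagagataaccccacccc
Myh7, chr14:54994792-54994857, minus strand, MCAT: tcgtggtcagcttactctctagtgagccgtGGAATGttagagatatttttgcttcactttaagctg

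Genes of the adult contractile apparatus had differences on the other side of the median. Of 24 tested, 0 were positive and 9 negative, beside 9.5% and 9.56% of all genes, with a median difference of -0.39. With library totals only 3 were positive and 1 negative, and the median of 0.13 lay 0.35 below that of all genes. The fall of Myh6, the alpha myosin heavy chain of the adult mouse ventricle, was from 10560, 11270, 11440 and 10660 CPM in sham to 4911, 5035, 5936 and 5652 CPM in TAC hearts. Sedentary hearts had 11310, 11650, 12290 and 11830 CPM and running hearts 10200, 11650, 11940 and 11000 CPM, which overlapped. The difference of Myh6 was -0.96 ± 0.14 (adjusted p = 6.39e-05, edgeR; -0.47 and 0.086 with library totals only). Tcap, the telethonin that caps titin at the Z disc, had the largest called difference of this list, -1.80 ± 0.32 (adjusted p = 0.00117, edgeR). Tcap fell in TAC hearts (effect -1.09), its running estimate was 0.71 (unadjusted p = 0.00684), and neither pair of groups overlapped.

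Matrix genes had positive differences almost throughout. Of 25 tested collagens, 24 had a positive called difference and 0 a negative one; Col11a2 was the exception, at 0.30 ± 0.53. Of 38 genes of matrix assembly and cross-linking, 30 were positive and 0 negative, and of 25 genes of activated fibroblasts, 23 were positive and 0 negative. The medians of the difference were 2.26, 1.69 and 2.68, against -0.017 for all genes. The medians of the running effect were -0.17, -0.029 and -0.089. The sign of the running estimate was negative in 22 of the 25 collagens, with an unadjusted p under 0.05 in 3.

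Thbs4, a thrombospondin of stressed heart and tendon, had the smallest p of any gene. Its level was 3.31, 4.00, 2.49 and 2.76 CPM in sham and 62.0, 57.8, 37.3 and 63.0 CPM in TAC hearts. It was 4.40, 4.64, 4.18 and 4.56 CPM in sedentary and 3.85, 3.36, 4.28 and 3.80 CPM in running hearts. The TAC hearts stood far above all others, and all 4 sham values lay below the sedentary ones. The difference was 4.37 ± 0.23 (95% interval 3.88 to 4.86, adjusted p = 5.3e-10, edgeR). Postn, periostin of activated fibroblasts, stood at 28.4, 27.5, 41.2 and 48.0 CPM in sham and 796, 551, 417 and 612 CPM in TAC hearts. Sedentary hearts had 39.1, 28.4, 27.1 and 34.4 CPM of it and running hearts 35.4, 31.4, 43.0 and 30.5 CPM, which overlapped each other and sham. Its difference was 3.91 ± 0.29 (adjusted p = 2.07e-07, edgeR).

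Lox, the lysyl oxidase that cross-links collagen and elastin, differed by 4.45 ± 0.57 (adjusted p = 0.000167, edgeR). Lox had 28.2 to 89.7 CPM in TAC hearts and 1.88 to 5.14 CPM in the other 12, with no overlap. Col8a2 (4.29 ± 0.43), the latent TGF-beta binding protein Ltbp2 (4.17 ± 0.29) and Col12a1 (4.03 ± 0.33) were of similar size. Cilp, a matrix protein of activated fibroblasts, followed at 3.90 ± 0.28, Eln, which encodes elastin, at 3.86 ± 0.50, and Frem1, a basement membrane protein, at 3.78 ± 0.58. In these 6 genes TAC and sham values did not overlap, and running and sedentary values did. The running estimate of Eln was -0.72 (unadjusted p = 0.0687), so that its difference was larger than its TAC effect of 3.14.

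Fbn1, Col1a1 and Itga11 had lower values in running than in sedentary hearts without overlap, but their running effects were not called. How many of all genes separate in this way was not counted. Fbn1, fibrillin of the elastic microfibrils, was at 86.7, 103, 88.3 and 109 CPM in sedentary and 50.3, 75.5, 67.6 and 82.1 CPM in running hearts. Fbn1 was at 57.3, 66.8, 57.8 and 98.7 CPM in sham and 530, 340, 328 and 455 CPM in TAC hearts, so that neither pair overlapped. Its running estimate was -0.49 (unadjusted p = 0.0192, adjusted 0.874) and its difference 3.05 ± 0.27 (adjusted p = 9.7e-07, edgeR). Col1a1, the main fibrillar collagen, likewise had no overlap in either pair, with a running estimate of -0.41 (unadjusted p = 0.11) and a difference of 3.39 ± 0.35 (adjusted p = 1.22e-05, edgeR). The collagen-binding integrin Itga11 showed the same arrangement, with a running estimate of -0.49 (unadjusted p = 0.0183) and a difference of 2.73 ± 0.26 (adjusted p = 7.78e-07, edgeR).

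Markers of several cell types moved with these groups. In whole hearts, fewer cells of a type and less RNA per cell cannot be told apart. Resident fibroblast markers, a list apart from the activated genes, were positive in 8 of 13 tested and negative in 1. Their summed level was 916 to 1182 CPM in sham, 1132 to 1544 CPM in TAC, 764 to 980 CPM in sedentary and 816 to 997 CPM in running hearts. Cardiomyocyte markers were positive in 0 and negative in 7 of 10 (0 of 10 called with library totals only, where their median of -0.20 lay 0.68 below all genes), with sums of 54210 to 61230 CPM in sham, 35700 to 43000 CPM in TAC, 48310 to 54820 CPM in sedentary and 49210 to 55690 CPM in running hearts. No cardiomyocyte or resident fibroblast marker was at 0 in any of the 16 libraries, and the part of these markers in the matrix and metabolic differences was not tested.

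**Figure D2:**
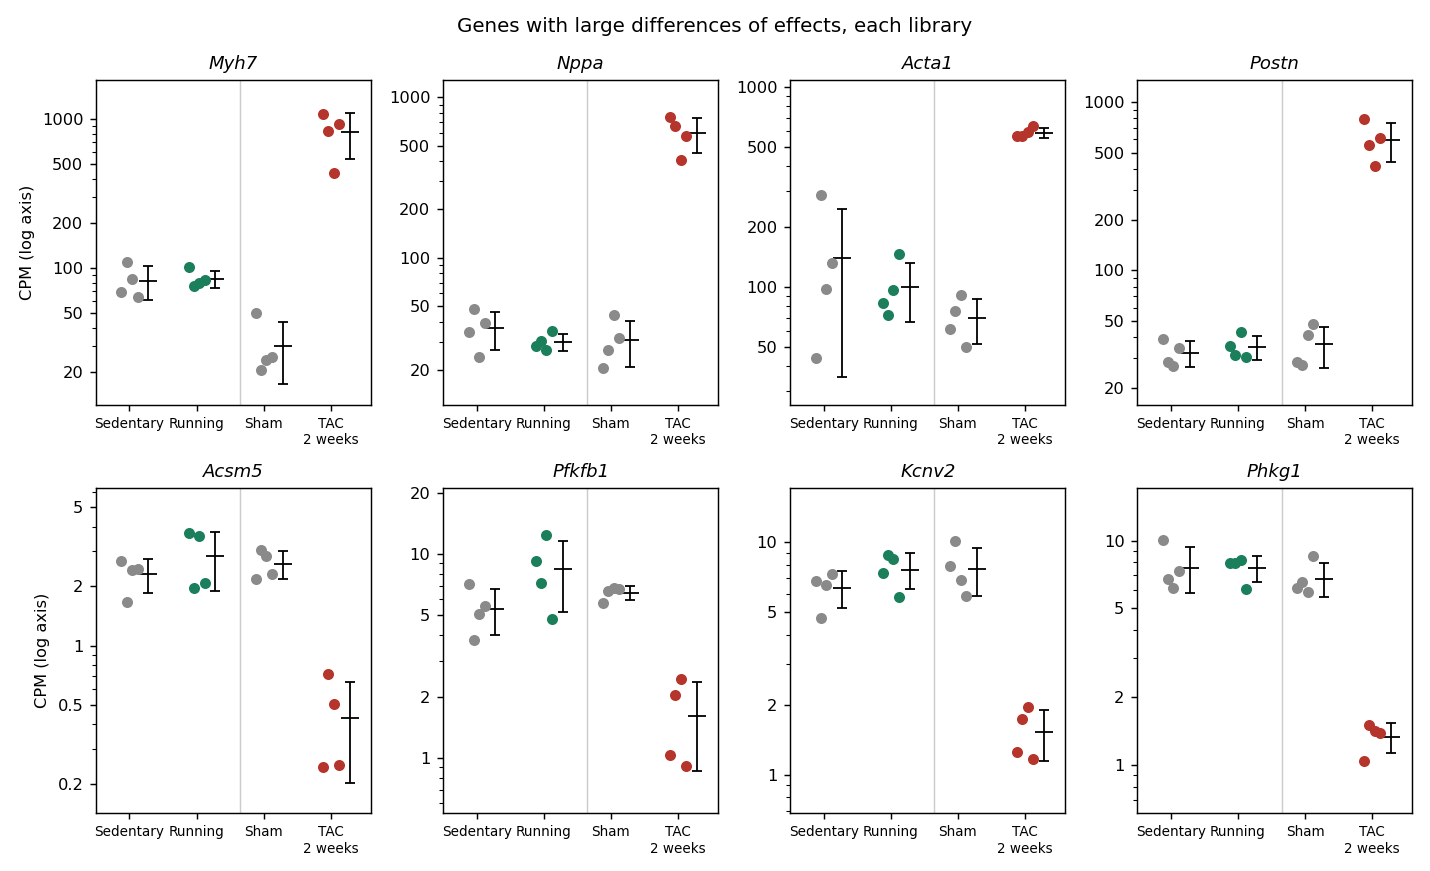
Levels (y axis, CPM on a log axis) of 8 genes with large differences in each of the 16 libraries, by group; points are libraries, horizontal marks the group mean and bars the SD of 4. TAC hearts stand above every other group for Myh7, Nppa, Acta1 and Postn and below every other group for Acsm5, Pfkfb1, Kcnv2 and Phkg1.

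The called differences of the metabolic lists were mostly negative. Of 39 genes of fatty acid oxidation, 34 had a negative called difference and 0 a positive one, and of 29 genes of the citric acid cycle and its entry, 25 and 0. Of 71 nuclear genes of the respiratory chain, 38 were negative and 0 positive, and of 21 genes for branched-chain amino acids and ketone bodies, 18 and 0. Their median differences were -0.97, -0.69, -0.61 and -0.77, and their median running effects -0.016, 0.0016, -0.0010 and 0.0025. With library totals only, the medians were -0.49, -0.22, -0.13 and -0.28 and the negative calls 5, 1, 1 and 2, although the medians lay 0.97, 0.69, 0.61 and 0.76 below that of all genes, almost as with TMM. The individual calls in these lists thus depend on the scaling. Their place relative to other genes could hardly move with it, so that likeness is no test of the result.

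Pnpla2, adipose triglyceride lipase, had the smallest p of the fatty acid oxidation list. Its level was 59.7, 58.7, 57.1 and 57.7 CPM in sham and 26.6, 32.2, 31.3 and 28.3 CPM in TAC hearts. Sedentary hearts had 70.6, 83.4, 79.1 and 78.3 CPM and running hearts 78.8, 76.6, 81.9 and 76.4 CPM, which overlapped. Its difference was -0.99 ± 0.12 (adjusted p = 9.43e-06, edgeR). Lpl, the lipase that frees fatty acids from circulating lipoproteins, differed by -1.09 ± 0.15 and Etfa, an electron carrier of beta-oxidation, by -1.06 ± 0.16. Sdha of complex II differed by -0.94 ± 0.13, and Pdp2, a phosphatase that activates pyruvate dehydrogenase, by -1.59 ± 0.24. Ppm1k, a phosphatase that activates the breakdown of branched-chain amino acids, differed by -1.35 ± 0.17. For these 5 genes the adjusted p lay between 2.54e-05 and 0.000134 (edgeR), TAC and sham did not overlap, and running and sedentary did. With library totals only, Pnpla2, Lpl, Etfa and Sdha were not called (adjusted p = 0.0691, 0.0524, 0.0613 and 0.125).

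Of 25 regulators of mitochondrial genes and mitochondrial shape, 13 were negative and 0 positive, with a median of -0.47 (0.011 with library totals only, 0.47 below all genes, where 2 were negative and 2 positive). Ppara, the receptor that drives genes of fatty acid oxidation, was at 18.0, 22.5, 18.6 and 21.2 CPM in sham and 9.54, 9.49, 8.94 and 8.62 CPM in TAC hearts, without overlap. Its difference was -1.18 ± 0.21 (adjusted p = 0.000505, edgeR). Ppargc1a, the coactivator PGC-1 alpha, fell in TAC hearts by 1.00 on the log2 scale (adjusted p = 0.0175, edgeR), but its difference of -0.91 ± 0.41 was not called (adjusted p = 0.145); without sedentary replicate 1 it was -1.25 and called (adjusted p = 0.0225). Its level varied widely among exercise hearts, at 123, 51.8, 47.6 and 83.3 CPM in sedentary and 111, 52.6, 49.8 and 76.3 CPM in running hearts. With a block for each replicate number the difference of Ppargc1a was -0.951 and called (adjusted p = 3.1e-06, edgeR). The labels do not tie these numbers to pairs.

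All 15 tested mitochondrially encoded genes had a negative called difference, with a median of -0.88 (-0.40 with library totals only, where 4 were called). Their TAC effect had a median of -0.67, and all 15 running estimates were positive (median 0.18), 4 of them with an unadjusted p under 0.05. mt-Nd2, a subunit of complex I, was at 5062, 5269, 4798 and 4848 CPM in sham and 2127, 2906, 3118 and 2755 CPM in TAC hearts. It was at 3876, 3549, 3591 and 3514 CPM in sedentary and 4478, 4299, 4263 and 5105 CPM in running hearts. Neither pair overlapped, and the difference was -1.19 ± 0.16 (adjusted p = 2.77e-05, edgeR).

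The share of all counts in mitochondrially encoded genes, ribosomal RNAs included, was 62.3% ± 1.96 in sham, 54.3% ± 3.30 in TAC, 65.6% ± 3.16 in sedentary and 67.5% ± 4.76 in running hearts (SD, n = 4). The TAC effect minus the running effect was -9.80 percentage points (exact two-sided permutation test over 4900 arrangements, p = 0.0245, adjusted 0.049 over 2 shares; smallest p possible 0.000408). With the ribosomal RNAs included the call was narrow. With 1 library left out the difference was -11.58 to -7.75 points. The exact permutation p adjusted over the 2 shares missed 0.05 in 13 of 16 omissions, the exceptions being sedentary replicate 1, running replicate 2 and TAC replicate 3. Without the mitochondrial ribosomal RNAs, all 16 libraries used, the difference was -7.35 points (exact permutation p = 0.000408, adjusted 0.000816 over 2 shares). The share of haemoglobin counts, a sign of blood left in the heart, differed by 0.0161 points (exact permutation p = 0.493).

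Sugar metabolism was less uniform. Of 30 glycolytic genes 2 were positive and 7 negative (30% called), and of 19 glycogen genes 2 and 8 (52.6%), beside 19.1% of all genes. The medians of -0.23 and -0.39 were 0.27 and 0.10 with library totals only, 0.21 and 0.38 below all genes. Under that scaling 6 glycolytic genes were positive and 1 negative, and 2 and 2 glycogen genes. Pfkfb1, an isoform of the enzyme that makes the activator of phosphofructokinase, had a strongly negative difference. It was at 5.73, 6.61, 6.84 and 6.71 CPM in sham, 1.04, 2.03, 2.44 and 0.918 CPM in TAC, 7.09, 3.79, 5.09 and 5.59 CPM in sedentary and 9.21, 7.23, 12.4 and 4.79 CPM in running hearts. Its difference was -2.67 ± 0.42 (adjusted p = 0.000422, edgeR) and its running estimate 0.63 (unadjusted p = 0.0386). Phkg1, the catalytic subunit of muscle phosphorylase kinase, differed by -2.32 ± 0.24 with a running estimate of -0.02. Ppp1r3a, the muscle subunit that brings protein phosphatase 1 to glycogen, differed by -1.29 ± 0.18 with a running estimate of 0.40 (unadjusted p = 0.00576). In contrast, Pfkp, the platelet isoform of phosphofructokinase, differed by 1.32 ± 0.18, with a TAC effect of 0.92 and a running estimate of -0.40. The adjusted p of Phkg1, Ppp1r3a and Pfkp were 1.87e-06, 6.17e-05 and 5.13e-05 (edgeR).

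Among called genes with a mean level of at least 2 CPM, the most negative difference belonged to Acsm5, a mitochondrial medium-chain acyl-CoA synthetase. It was low in all groups, at 2.17, 3.05, 2.85 and 2.31 CPM in sham, 0.243, 0.715, 0.509 and 0.250 CPM in TAC, 2.69, 1.66, 2.40 and 2.43 CPM in sedentary and 3.69, 1.96, 3.602 and 2.08 CPM in running hearts. TAC hearts lay below all others, and the difference was -2.91 ± 0.40 (adjusted p = 4.92e-05, edgeR). Aqp4, a water channel, differed by -2.62 ± 0.42 and Klhl33, a kelch-like protein, by -2.50 ± 0.44. Ccbe1, a secreted protein that matures the lymphatic growth factor Vegfc, differed by -2.37 ± 0.32, and Ces1d, a carboxylesterase, by -2.23 ± 0.32. The running estimates of Klhl33 and Ccbe1 were 0.87 and 0.80 (unadjusted p = 0.00849 and 0.00196), those of Aqp4 and Ces1d 0.48 and 0.08. The provisional gene Gm14327, at -2.28 ± 0.24, overlapped in neither pair, with a running estimate of 0.72. Gm37048, also at -2.28 (± 0.38), lies on the strand opposite Hdac4, so its reads may not be separable from that gene.

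Ion channel genes were largely negative too. Of 29 potassium and sodium channel genes, 19 had a negative difference and 1 a positive one, with a median of -0.72. Scaled by library totals, 6 were negative and 5 positive, and the median of -0.22 lay 0.70 below all genes. Kcnv2, a modifying subunit of voltage-gated potassium channels, was at 7.90, 10.1, 6.91 and 5.90 CPM in sham and 1.25, 1.73, 1.96 and 1.168 CPM in TAC hearts. Sedentary hearts had 6.82, 4.73, 6.58 and 7.35 CPM and running hearts 7.39, 8.80, 8.51 and 5.83 CPM, which overlapped. Its difference was -2.60 ± 0.27 (adjusted p = 2.23e-06, edgeR). Kcnj3, a subunit of the acetylcholine-gated potassium channel, differed by -1.65 ± 0.24, Kcnip2, a subunit of the transient outward channel, by -1.14 ± 0.19, and Abcc9, the receptor subunit of the ATP-sensitive channel, by -1.01 ± 0.15. Their adjusted p lay between 8.32e-05 and 0.000304 (edgeR); the call of Abcc9 was lost with library totals only (adjusted p = 0.0819).

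Of 27 calcium handling genes, 7 were negative (9.56% of all genes were) and 0 positive, and the median of -0.074 lay close to all genes. Scaled by library totals, 1 was negative and 4 positive, and the median of 0.43 lay 0.050 below all genes. Hrc, a calcium-binding protein of the sarcoplasmic reticulum, was at 228, 211, 208 and 199 CPM in sham, 62.9, 82.1, 98.1 and 89.4 CPM in TAC, 213, 233, 231 and 234 CPM in sedentary and 212, 234, 209 and 209 CPM in running hearts. Only TAC hearts stood apart, with a difference of -1.27 ± 0.15 (adjusted p = 1.29e-05, edgeR). Atp2a2, the calcium pump SERCA2, differed by -1.02 ± 0.17 (adjusted p = 0.000378, edgeR; -0.54 and 0.0856 with library totals only). Among 34 genes of adrenergic and cyclic GMP signalling, 8 were positive and 5 negative (14 and 1 with library totals only). That is 38.2% called, beside 19.1% of all genes. Adra1a, the alpha-1A adrenergic receptor, was at 18.7, 15.4, 18.0 and 17.2 CPM in sham, 4.23, 8.02, 8.32 and 5.78 CPM in TAC, 14.8, 16.6, 15.4 and 13.9 CPM in sedentary and 20.7, 19.7, 20.1 and 17.1 CPM in running hearts. Neither pair overlapped. The running estimate of Adra1a was 0.35 (unadjusted p = 0.0225, adjusted 0.88) and its difference -1.75 ± 0.21 (adjusted p = 9.43e-06, edgeR).

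**Figure D3:**
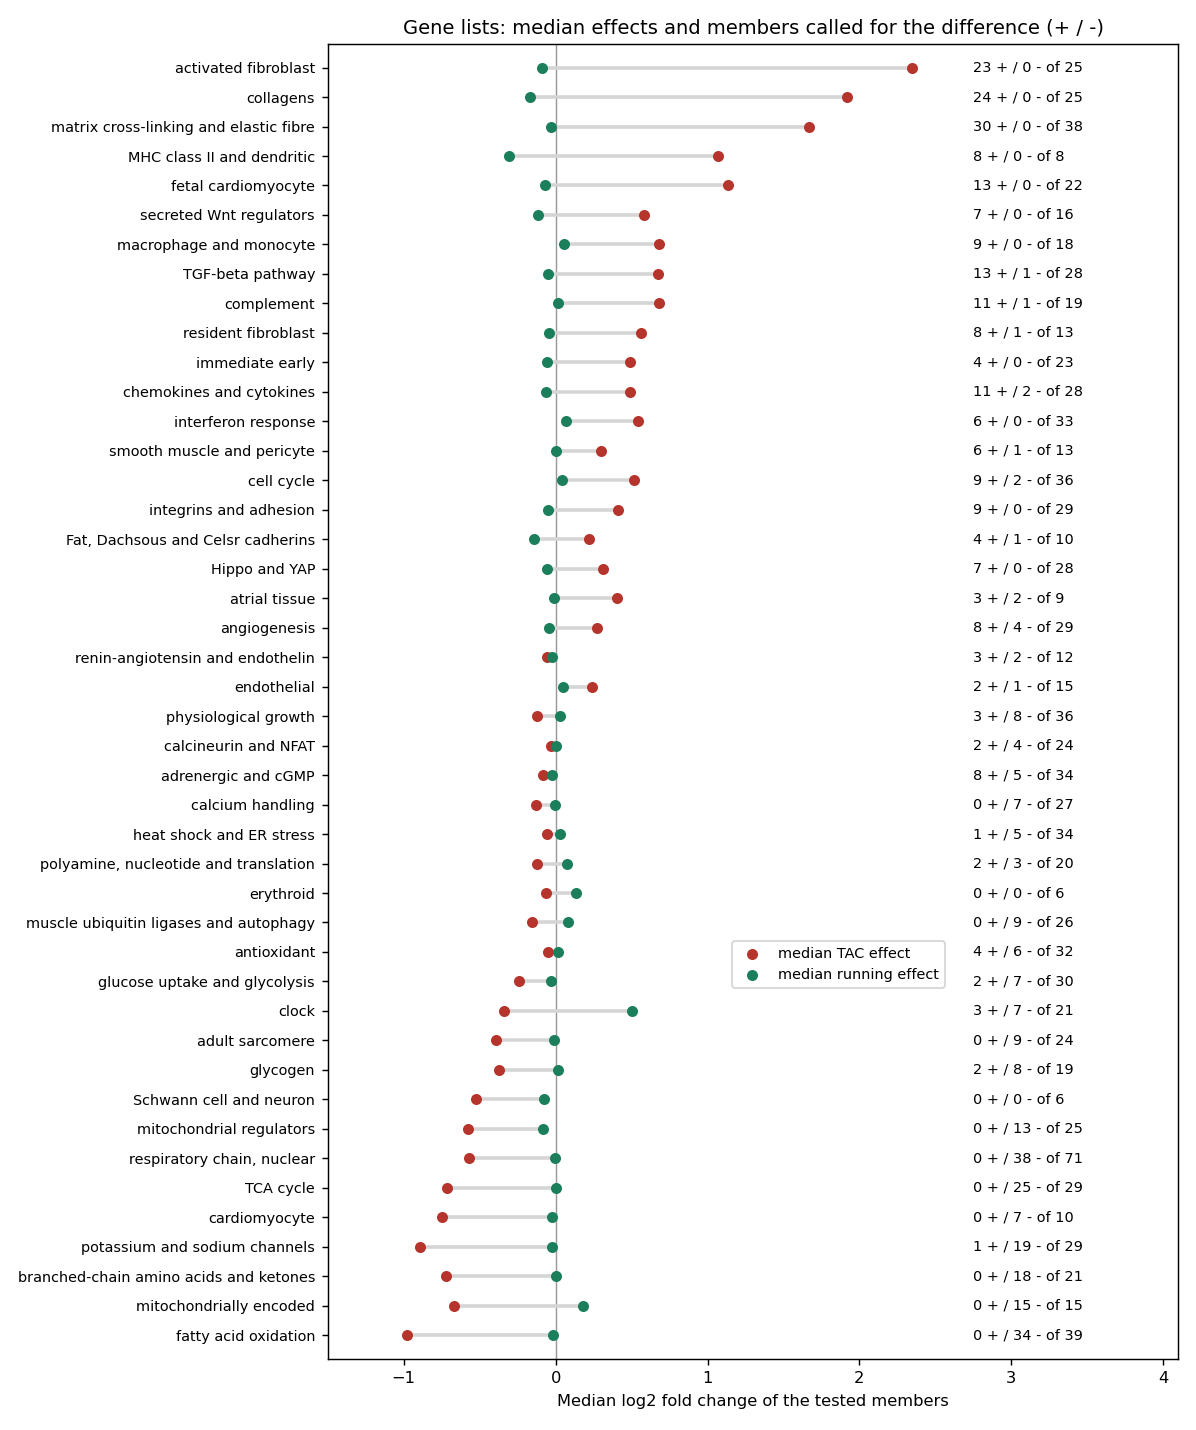
Median TAC effect (red) and median running effect (green) of the tested members of each gene list with at least 6 tested (x axis, log2 fold change), with the numbers of members called positive and negative for the difference at the right. Median running effects lie near 0 for most lists, the clock list being the farthest on the positive side at 0.50. With library totals only, every median difference is shifted up with that of all genes (0.478). Many negative medians thereby turn positive, among them those of the adult sarcomere, clock, glycolysis, glycogen, calcium, ubiquitin, calcineurin, adrenergic, heat shock and antioxidant lists.

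Pik3ip1 was the gene called in both settings, in opposite directions. It encodes a transmembrane inhibitor of phosphoinositide 3-kinase. Its level was 18.5, 19.3, 22.2 and 20.9 CPM in sham and 14.2, 15.2, 14.8 and 13.1 CPM in TAC hearts. It was 11.4, 12.2, 9.33 and 9.85 CPM in sedentary and 23.3, 20.0, 19.3 and 16.0 CPM in running hearts. Neither pair overlapped. The sedentary hearts were the lowest of the 4 groups, and running hearts overlapped sham hearts. The TAC effect was -0.50 ± 0.11 (adjusted p = 0.00137), the running effect 0.87 ± 0.11 (adjusted p = 0.00253) and the difference -1.37 ± 0.16 (adjusted p = 6.51e-06, edgeR). The running estimate was 0.88 in exercise libraries 1 to 4 and 0.86 in libraries 5 to 8. No gene was called for running in fits on the 8 exercise libraries alone or on all 24 libraries.

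Of the 343 genes with a called difference and an unadjusted running p under 0.05, 329 had effects of opposite sign and 14 of the same sign. Among all 829 genes with such a running p, whether or not the difference was called, signs were opposite in 476 (57.4%). Requiring a called difference favours opposite signs, so the split of the 343 largely describes the selection. The genes described next were chosen from the 343 after their values were seen. Gdap10, a transcript that overlaps Nampt on the same strand, was at 17.8, 19.9, 15.8 and 17.9 CPM in sham, 8.15, 9.26, 6.07 and 6.17 CPM in TAC, 12.8, 7.19, 10.3 and 9.66 CPM in sedentary and 20.3, 18.3, 23.3 and 15.7 CPM in running hearts. Neither pair overlapped, and the difference was -2.21 ± 0.23 (adjusted p = 3.29e-06, edgeR). Nampt itself, the rate-limiting enzyme of NAD salvage, differed by -1.42 ± 0.19 (adjusted p = 3.29e-05, edgeR), with a TAC effect of -0.97 and a running estimate of 0.45. Reads of this pair may not be separable. Gpcpd1, a glycerophosphocholine phosphodiesterase, differed by -1.77 ± 0.24 (TAC -1.10, running 0.67; adjusted p = 7.15e-05, edgeR).

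Foxo3, a transcription factor held inactive by Akt, was at 55.8, 63.1, 69.4 and 65.8 CPM in sham, 40.9, 46.4, 34.5 and 34.4 CPM in TAC, 60.0, 43.4, 42.0 and 52.6 CPM in sedentary and 73.1, 61.8, 61.4 and 62.8 CPM in running hearts. Neither pair overlapped, and the difference was -1.09 ± 0.17 (adjusted p = 0.000182, edgeR). Klhl38, a kelch-like protein of muscle, differed by -1.98 ± 0.33 (TAC -1.09, running 0.89, unadjusted p = 0.00128), with some overlap of running and sedentary hearts. Fbxo32, the muscle ubiquitin ligase atrogin-1, differed by -0.87 ± 0.23 although neither effect was called (TAC -0.33, running 0.53). The adjusted p of Klhl38 and Fbxo32 were 0.000573 and 0.0107 (edgeR), and Fbxo32 was not called with library totals only (adjusted p = 0.288). Of 26 genes of muscle ubiquitin ligases and autophagy, 9 were negative and 0 positive; their median of -0.20 was 0.29 with library totals only, 0.19 below all genes, where 2 were negative and 6 positive. Klf15, a transcription factor of cardiac lipid and amino acid use, differed by -1.83 ± 0.35 (TAC -1.26, running 0.56; adjusted p = 0.00218, edgeR).

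In the other direction, Cx3cr1, the fractalkine receptor of monocytes and macrophages, was at 1.32, 1.61, 0.877 and 1.82 CPM in sham, 4.61, 2.86, 4.03 and 4.53 CPM in TAC, 1.53, 2.79, 3.03 and 2.13 CPM in sedentary and 0.416, 1.173, 0.673 and 0.937 CPM in running hearts. Neither pair overlapped. The TAC effect was 1.52, the running estimate -1.51 (unadjusted p = 5.42e-05, adjusted 0.2) and the difference 3.04 ± 0.39 (adjusted p = 2.54e-05, edgeR). Several gene models overlap Cx3cr1, on both strands. Its ligand Cx3cl1 differed by 1.79 ± 0.25 (TAC 1.28, running -0.51, unadjusted p = 0.00919; adjusted p of the difference 6.39e-05, edgeR), with no overlap in either pair. Vgll3, a cofactor of TEAD transcription factors, was at 1.32, 1.28, 1.2 and 2.52 CPM in sham, 5.93, 3.73, 5.12 and 5.37 CPM in TAC, 2.91, 2.37, 2.69 and 1.95 CPM in sedentary and 0.416, 1.095, 1.27 and 1.77 CPM in running hearts. It overlapped in neither pair and differed by 2.80 ± 0.40 (adjusted p = 9.75e-05, edgeR).

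**Figure D4:**
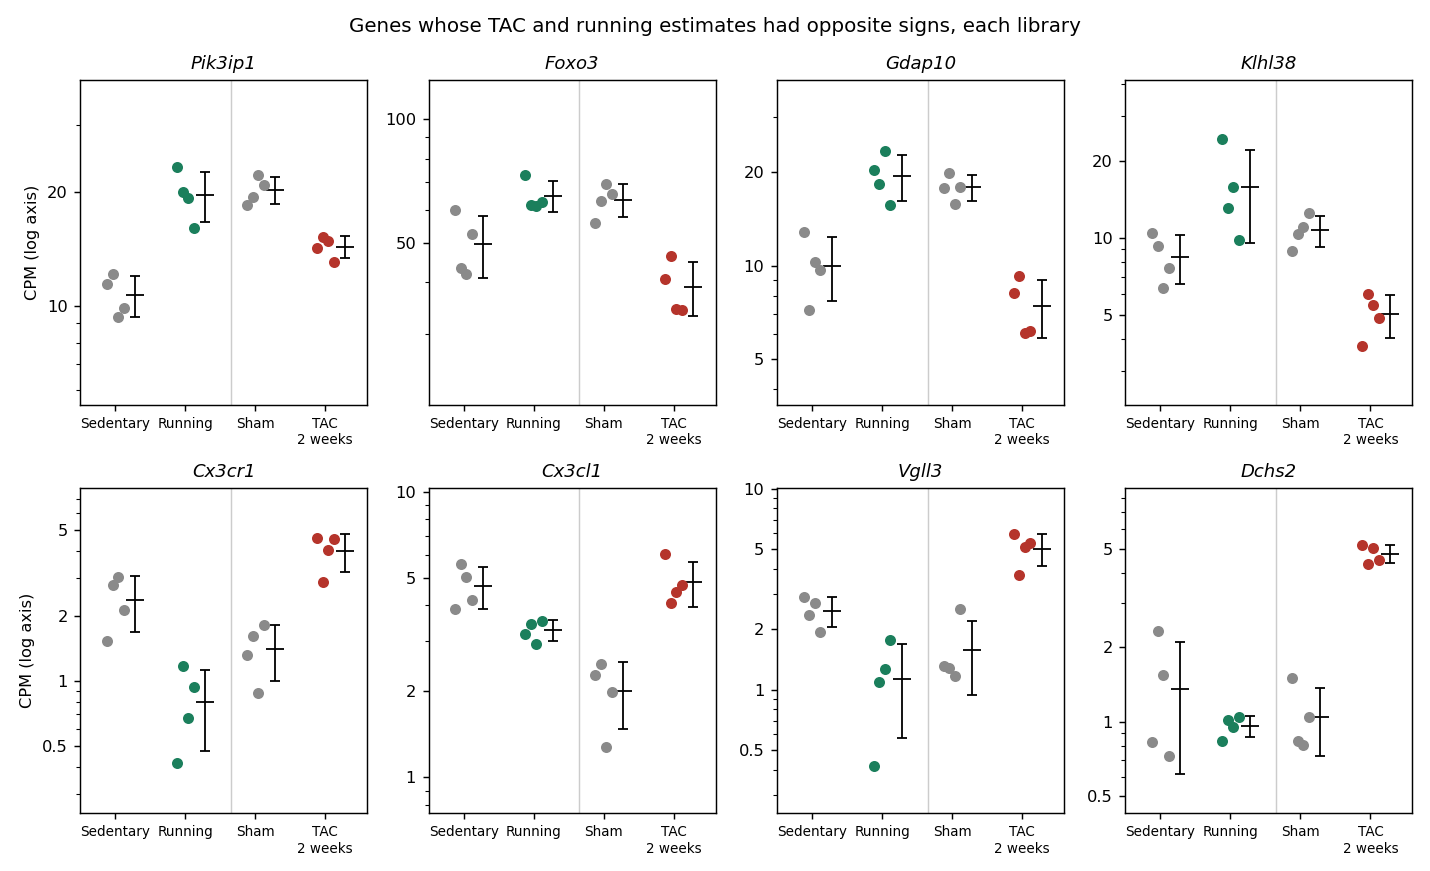
Levels (y axis, CPM on a log axis) of Pik3ip1, Foxo3, Gdap10, Klhl38, Cx3cr1, Cx3cl1, Vgll3 and Dchs2 in each library; points are libraries, horizontal marks group means and bars the SD of 4. In the upper 4 genes running means lie above sedentary and TAC means below sham, in the lower 4 the reverse, and running and sedentary hearts overlap for Klhl38 and Dchs2.

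The circadian clock genes were the list with the widest running estimates. Of 21 tested, 3 had a positive called difference and 7 a negative one, and the running estimate had an unadjusted p under 0.05 in 15, none of them called. The median running estimate was 0.50 (all genes 0.0041) and the median TAC effect -0.34. The median difference of -0.34 was 0.13 with library totals only, 0.35 below all genes, where 4 were positive and 6 negative. The 2 arms of the clock had opposite signs. The activators Arntl, Npas2 and Clock had positive differences, and Per3, Nr1d2 and Cry2 of the repressor arm, as well as the output genes Dbp, Tef, Hlf and Ciart, had negative ones.

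Arntl was at 0.641, 0.777, 0.219 and 1.47 CPM in sham, 2.98, 1.36, 3.198 and 3.67 CPM in TAC, 3.98, 8.42, 10.9 and 4.62 CPM in sedentary and 0.884, 0.821, 0.356 and 2.76 CPM in running hearts. Running and sedentary values did not overlap, while 1 TAC value lay below the highest sham value. The TAC effect was 1.85 (adjusted p = 0.0295), the running estimate -2.58 (unadjusted p = 0.000463, adjusted 0.445) and the difference 4.42 ± 0.82 (adjusted p = 0.0021, edgeR). Npas2, which can stand in for Clock, differed by 2.44 ± 0.61 and Clock by 0.78 ± 0.17 (adjusted p = 0.00938 and 0.00232, edgeR). For Npas2 no TAC effect was called (0.79), and running and sedentary values did not overlap.

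Tef, a transcription factor of the PAR bZIP family driven by the clock, was at 92.5, 91.9, 108 and 77.8 CPM in sham, 56.1, 65.6, 49.0 and 42.8 CPM in TAC, 56.6, 30.2, 29.1 and 49.0 CPM in sedentary and 77.6, 87.5, 101 and 62.8 CPM in running hearts. Neither pair overlapped. Its TAC effect was -0.79 (adjusted p = 0.00608), its running estimate 0.99 (unadjusted p = 0.000168) and the difference -1.78 ± 0.29 (adjusted p = 0.000446, edgeR). Its relative Hlf differed by -2.06 ± 0.42 (TAC -1.02, running 1.04; adjusted p = 0.00374, edgeR). Dbp, the third of the family, was at 33.2, 30.3, 30.6 and 33.9 CPM in sham, 25.2, 29.6, 23.8 and 13.8 CPM in TAC, 22.7, 10.6, 4.01 and 16.6 CPM in sedentary and 25.95, 51.9, 47.7 and 37.2 CPM in running hearts. Dbp differed by -2.05 ± 0.55 (adjusted p = 0.0193, edgeR), a call lost in the fit on all 24 libraries (adjusted p = 0.0712) and with exercise libraries 1 to 4 alone (-1.69, adjusted p = 0.0576).

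Per3, a repressor of the clock, was at 41.5, 32.4, 33.6 and 29.3 CPM in sham, 25.8, 30.1, 20.2 and 18.4 CPM in TAC, 21.4, 7.95, 9.21 and 17.7 CPM in sedentary and 36.6, 37.8, 46.4 and 25.2 CPM in running hearts. Its TAC effect was not called (-0.54), running and sedentary values did not overlap, and the difference was -1.90 ± 0.40 (adjusted p = 0.00468, edgeR). Nr1d2, the nuclear receptor REV-ERB beta, differed by -1.19 ± 0.27, Cry2 by -1.15 ± 0.24 and Ciart, a repressor of Clock and Arntl, by -2.30 ± 0.56 (adjusted p = 0.00503, 0.00205 and 0.0102, edgeR). Per1 (-1.36 ± 0.74, adjusted p = 0.236), Per2 (-2.10 ± 0.81, 0.0932) and Nr1d1 (-0.10 ± 0.49, 0.922) were not called (edgeR). Per2 varied widely within the sedentary group, at 16.9, 1.56, 2.35 and 10.5 CPM, and was called without sedentary replicate 1 (-2.89, adjusted p = 0.0214, edgeR) and by limma-voom (-2.63, adjusted p = 0.04). With library totals only, Cry2 was not called (adjusted p = 0.055). With exercise libraries 5 to 8 alone, Npas2, Clock, Ciart and Cry2 were not called (adjusted p = 0.0923, 0.0665, 0.0541 and 0.0532, edgeR). Ciart was not called with libraries 1 to 4 alone either (adjusted p = 0.0637, edgeR).

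In some of these genes the sedentary hearts stood apart from the other controls. Mean levels of Arntl were 6.97 CPM in sedentary, 1.205 CPM in running, 0.776 CPM in sham and 2.80 CPM in TAC hearts. Those of Tef were 41.3, 82.1, 92.5 and 53.4 CPM in the same order. For both genes running means lay nearer to sham than to sedentary means. Cry2 was an exception, at 12.7, 18.03, 13.37 and 8.56 CPM in that order, with sedentary hearts next to sham hearts. The running estimate of Arntl was -2.84 in exercise libraries 1 to 4 and -2.43 in libraries 5 to 8, and that of Tef 0.92 and 1.05. With no time of day in the labels, a change of the clock and a difference in the hour of collection cannot be told apart.

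The promoters of the 10 called clock genes were all matched in RefSeq, since the E-box (CACGTG) is the textbook binding motif of the Arntl and Clock pair. An E-box lay in the 250 bases before the start in 2 of the 10, Tef and Ciart (6.86% of all genes), and an MCAT element in 1, Nr1d2 (14.4%). The windows of these 2 are printed with the E-box in capitals. Tef has a second start with a further E-box, which is not printed. Per1, whose difference was not called, also held an E-box in the 250 bases before its start. The share among clock genes that were not called was not counted. No match in this window says nothing about E-boxes elsewhere in a gene.
Tef, chr15:81802516-81802581, plus strand: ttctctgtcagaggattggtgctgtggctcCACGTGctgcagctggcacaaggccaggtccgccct
Ciart, chr3:95882237-95882374, minus strand: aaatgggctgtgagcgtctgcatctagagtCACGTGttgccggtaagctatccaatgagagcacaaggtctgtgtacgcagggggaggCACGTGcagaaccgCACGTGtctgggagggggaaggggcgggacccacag

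**Figure D5:**
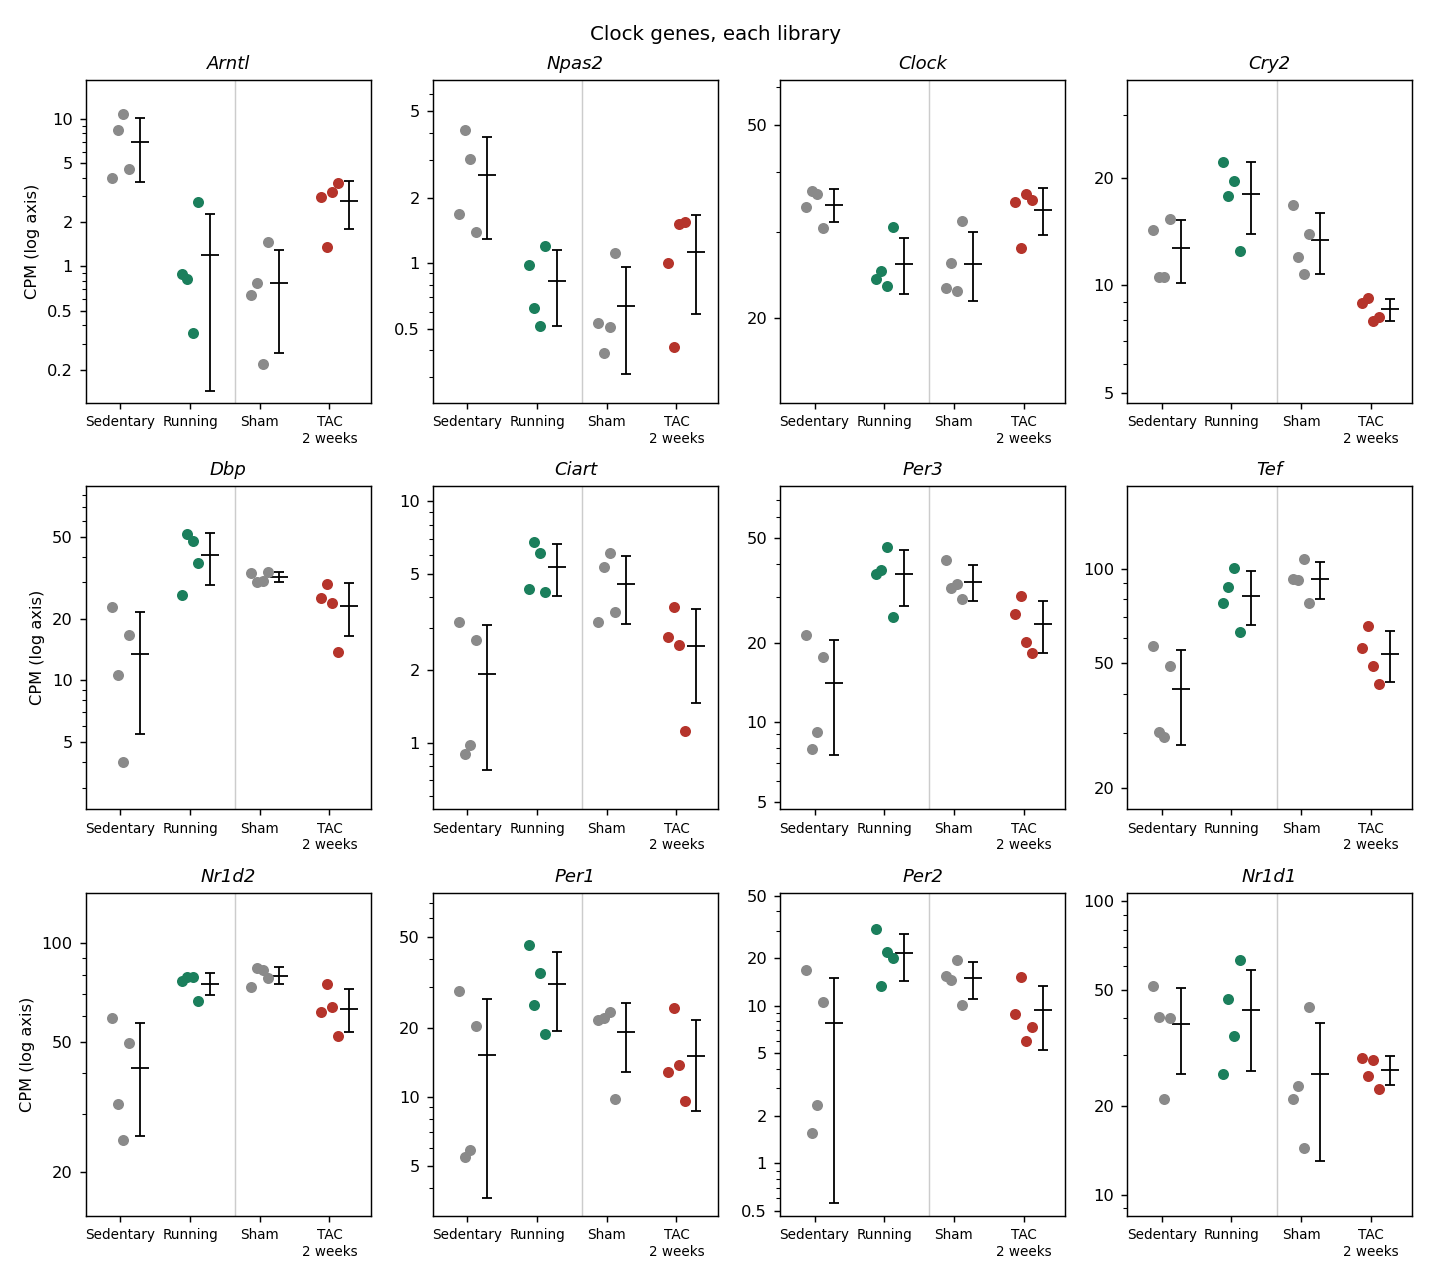
Levels (y axis, CPM on a log axis) of 12 circadian clock genes in each library; points are libraries, horizontal marks group means and bars the SD of 4. Sedentary hearts are the highest group for Arntl and Npas2 and the lowest by mean for Tef, Per3, Dbp and Nr1d2, and the running means lie nearer to sham than to sedentary for these 6 genes.

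In the 147 genes with neither effect called (69 positive, 78 negative), 111 had an unadjusted running p under 0.05. Besides clock genes, Dusp5, a phosphatase of ERK, was at 0.961, 0.888, 0.804 and 0.943 CPM in sham, 1.04, 1.09, 1.599 and 1.64 CPM in TAC, 2.29, 2.37, 1.49 and 2.74 CPM in sedentary and 1.46, 1.02, 0.436 and 1.198 CPM in running hearts. Neither pair overlapped, and the difference was 1.72 ± 0.39 (adjusted p = 0.00391, edgeR). Edn1, the vasoconstrictor endothelin 1, differed by 1.178 ± 0.34 (TAC 0.52, running -0.66; adjusted p = 0.0181, edgeR). Wee1, a kinase that delays mitosis and is driven by the clock in mouse liver, differed by -1.73 ± 0.43 (adjusted p = 0.00926, edgeR). For Prps2, a synthetase of nucleotide precursors, the TAC effect was -0.04 and the running estimate 0.49 (difference -0.53 ± 0.15, adjusted p = 0.0137, edgeR; -0.054 and 0.866 with library totals only). For Dyrk2, a kinase, they were 0.12 and -0.54 (0.66 ± 0.19, 0.019). In both genes running and sedentary values did not overlap and TAC and sham values did. With exercise libraries 5 to 8 alone, Edn1, Wee1, Prps2 and Dyrk2 were not called (adjusted p = 0.102, 0.124, 0.0536 and 0.111, edgeR). With libraries 1 to 4 alone, Edn1, Prps2 and Dyrk2 were not called either (adjusted p = 0.0832, 0.155 and 0.12, edgeR). Among the 14 genes with estimates of the same sign, Whrn, which encodes the scaffold protein whirlin, was at 7.01, 6.44, 4.72 and 5.31 CPM in sham, 1.53, 1.39, 1.38 and 1.59 CPM in TAC, 7.22, 8.99, 10.0 and 10.7 CPM in sedentary and 6.92, 8.602, 6.18 and 7.91 CPM in running hearts. TAC hearts lay below all others and running hearts overlapped sedentary ones, with a difference of -1.68 ± 0.22 (adjusted p = 2.69e-05, edgeR).

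Dchs2, the cadherin named in the title of the series, was at 1.495, 0.833, 0.804 and 1.05 CPM in sham and 5.17, 4.33, 5.01 and 4.50 CPM in TAC hearts. It was at 0.826, 2.32, 1.55 and 0.729 CPM in sedentary and 0.832, 1.02, 0.950 and 1.04 CPM in running hearts. TAC and sham did not overlap, and running hearts lay within the range of sedentary hearts. The TAC effect was 2.16, the running estimate -0.48 (95% interval -1.10 to 0.15) and the difference 2.64 ± 0.39 (adjusted p = 0.000106, edgeR). Gm10710 overlaps Dchs2 on the other strand. Dchs1, its relative, differed by 1.138 ± 0.22, Fat1 by 1.53 ± 0.18 and Fat4, the Dachsous receptor, by 0.67 ± 0.18, while Celsr2 differed by -1.04 ± 0.22 (adjusted p = 0.00118, 7.87e-06, 0.0111 and 0.00259, edgeR). Of 10 tested genes of the Fat, Dachsous and Celsr cadherins and their partners, 4 were positive and 1 negative (50% called, beside 19.1% of all genes). Celsr2 was not called with library totals only (-0.54, adjusted p = 0.114). With exercise libraries 5 to 8 alone, Celsr2 and Fat4 were not called (adjusted p = 0.051 and 0.0636, edgeR).

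The Hippo pathway, which Fat cadherins are known to regulate in Drosophila, had 7 positive and 0 negative of 28 tested (median 0.29). Called members were 25%, beside 19.1% of all genes (9.5% positive and 9.56% negative). With library totals only the counts were 20 and 0. Yap1, the transcriptional effector of the pathway, did not have a called difference (-0.06 ± 0.14, 95% interval -0.35 to 0.22, adjusted p = 0.796, edgeR). Its relative Wwtr1 differed by 0.69 ± 0.11 (adjusted p = 0.000282, edgeR). Ccn2, connective tissue growth factor and a textbook Yap target, differed by 2.82 ± 0.51 (adjusted p = 0.00191, edgeR).

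Of 36 genes of exercise growth signalling, 3 were positive and 8 negative, beside 9.5% and 9.56% of all genes, with a median of 0.016. Under library totals 12 were positive and 3 negative, and the median was 0.53, 0.056 above all genes. Igf1 was at 10.1, 14.8, 9.76 and 15.0 CPM in sham, 43.6, 34.3, 30.6 and 39.0 CPM in TAC, 11.4, 11.1, 10.7 and 9.24 CPM in sedentary and 14.9, 10.1, 12.4 and 10.5 CPM in running hearts. Only TAC hearts stood apart, and the difference was 1.41 ± 0.22 (adjusted p = 0.000189, edgeR). Erbb4, the neuregulin receptor of cardiomyocytes, differed by -0.99 ± 0.17 (adjusted p = 0.000531, edgeR; 0.0754 with library totals only). Cebpb and Cited4, a repressor and a regulator tied to exercise growth of the mouse heart, had no called difference, at -0.82 ± 0.55 (interval -2.002 to 0.37) and 0.16 ± 0.53 (interval -0.96 to 1.29). Vegfa was likewise not called (0.18 ± 0.26; 0.74 and called with library totals only, adjusted p = 0.0178). The adjusted p of these 3 were 0.344, 0.872 and 0.689 (edgeR), and the intervals of Cebpb and Cited4 include differences of 2-fold or more in at least 1 direction.

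Called differences of markers of MHC class II cells and of macrophages were positive. Of 8 tested markers of antigen-presenting cells with MHC class II, 8 were positive, with a median of 1.43; all 8 running estimates were negative (median -0.31), 5 with an unadjusted p under 0.05. H2-Aa, a class II chain, was at 16.1, 13.8, 13.6 and 14.7 CPM in sham, 30.6, 29.9, 35.1 and 33.5 CPM in TAC, 15.3, 16.0, 13.1 and 12.2 CPM in sedentary and 14.5, 11.6, 10.3 and 9.79 CPM in running hearts. TAC and sham did not overlap, running and sedentary did, and the difference was 1.45 ± 0.16 (adjusted p = 5.69e-06, edgeR). Of 18 macrophage and monocyte markers, 9 were positive and 0 negative (50%, against 19.1% of all genes called), and their summed level was 179 to 275 CPM in sham, 330 to 433 CPM in TAC, 152 to 183 CPM in sedentary and 155 to 191 CPM in running hearts. Ms4a7, a macrophage membrane protein, differed by 2.16 ± 0.30, and Ccr2, the receptor of recruited monocytes, by 1.95 ± 0.28 (adjusted p = 6.18e-05 and 8.77e-05, edgeR). Of 33 interferon response genes 6 were positive and 0 negative. That is 18.2% called, beside 19.1% of all genes in either direction and 9.5% positive. Their median difference was 0.46. With library totals only 26 were positive and 0 negative, and with exercise libraries 5 to 8 alone 1 was called. Of 28 chemokines and cytokines 11 were positive and 2 negative. Of 3 neutrophil, 2 lymphocyte, 6 erythroid and 3 adipocyte markers tested, 0 were called. Of 13 lymphocyte markers in the table, 10 were at 0 in at least 1 library, among them Cd3e, Cd79a and Ms4a1, and of 7 neutrophil markers 5, among them S100a8 and Ly6g. No macrophage marker was at 0 in any library. The part of these cells in the immune differences was not tested.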

How the data were processed

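RNA of whole hearts was flash-frozen, extracted with Trizol, depleted of ribosomal RNA and made into libraries with an NEB kit, per the labels' protocols. The authors deposited estimated counts per gene; Salmon, FastQC and the build mm9 are named per the submitters' processing notes, while their versions, the annotation, the strand setting and how transcripts were summed to genes are not stated there. The deposited expected counts were whole numbers and were used as such. Of 43433 lines in the table, 1 named no gene and held 0 counts; 42548 of 43432 identifiers were given a symbol by identifier. Promoter sequences are from RefSeq (GRCm38.p6). Coordinates are printed for the RefSeq promoter windows alone, in that build.

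Estimated counts of 16 libraries were analysed with edgeR 4.0.16 (R 4.3.3; filterByExpr, TMM, robust quasi-likelihood fit), with 1 mean per group and contrasts for the TAC effect, the running effect and their difference. Adjusted p are Benjamini-Hochberg over the 14729 genes tested, with a threshold of 0.05. Standard errors are the fold change divided by the square root of F, and intervals are 95%. CPM are counts divided by the TMM-scaled library total. Shares of counts were compared by exact permutation. The depth, 16802939 to 39512101 counts per library, limits the precision of transcripts near 1 CPM. The procedure was tested on simulated data. Overlapping and antisense genes may share reads.

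Alternatives were DESeq2 1.42.0, RLE factors, library totals only, no mitochondrial genes, other filters, all 24 libraries, blocks, each part of the exercise libraries, limma-voom (limma 3.58.1) and leaving out each library. The genes described were, among those called with a mean of at least 2 CPM, the 12 largest differences in each direction, genes called in both settings, up to 4 per list with the smallest p, and a set of textbook genes; others were added after their values were seen, namely those described for opposite or same signs, for neither effect called, and further clock genes. The members and the 49 lists were chosen with earlier results of these data known. lncExACT1, named in the title of the series, was not analysed here.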

Additional observations from a re-analysis of the deposited data

Results flagged for a closer look

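Single hearts that stood far from the other 3 of their group (a gap above Dixon's 95% critical value for 4 values) were found in 14 of 280 groups of named genes, and chance alone gives about 1 in 20. For Myh7, the fetal beta myosin heavy chain, sham replicate 1 was at 49.9 CPM against 20.7 to 25.4 CPM in the other sham hearts. For Col8a2, a chain of type VIII collagen, sedentary replicate 4 was at 0.425 CPM against 0.757 to 0.801 CPM in the other sedentary hearts. For Ltbp2, a microfibril-associated protein, sedentary replicate 4 was at 7.9 CPM against 6.67 to 6.87 CPM in the other sedentary hearts. For Eln, elastin, sham replicate 4 was at 4.12 CPM against 1.78 to 2.12 CPM in the other sham hearts. For Nppb, B-type natriuretic peptide, sedentary replicate 1 was at 26.9 CPM against 49.6 to 54 CPM in the other sedentary hearts. For Edn1, endothelin 1, TAC replicate 4 was at 1.89 CPM against 2.22 to 2.26 CPM in the other TAC hearts. For Clock, the partner of Arntl, TAC replicate 2 was at 27.9 CPM against 34.7 to 36 CPM in the other TAC hearts. For Fat4, the Dachsous receptor, sham replicate 1 was at 33.4 CPM against 23.7 to 25.1 CPM in the other sham hearts. For Dyrk2, a kinase, running replicate 4 was at 5.93 CPM against 6.93 to 7.12 CPM in the other running hearts. For Vegfa, the vascular growth factor, running replicate 4 was at 140 CPM against 71.6 to 83 CPM in the other running hearts. For Cited4, a transcriptional regulator, sham replicate 1 was at 4.16 CPM against 2.17 to 2.5 CPM in the other sham hearts. For Per1, a clock repressor, sham replicate 4 was at 9.75 CPM against 21.6 to 23.5 CPM in the other sham hearts. For Nampt, the enzyme of NAD salvage, sham replicate 1 was at 90.7 CPM against 106 to 109 CPM in the other sham hearts. For Phkg1, a subunit of phosphorylase kinase, running replicate 4 was at 6.09 CPM against 7.96 to 8.2 CPM in the other running hearts. Running replicate 4 stood apart for 3 of these genes and sham replicate 1 for 4. None of these hearts was left out of the values given.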

How the results depend on the processing

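The difference was called in 2807 genes, and in 4720 with library totals only (4506 positive, 214 negative), where the median of all genes moved to 0.478. It was called in 1663 with exercise libraries 1 to 4 alone and in 1095 with libraries 5 to 8 alone, where fewer samples were used, and in 2169 to 2919 when 1 library was left out. The class with the TAC effect called and the running effect not held 4499, 1631 and 1060 genes under those settings in turn (2063 to 2726 with 1 library left out). The class with neither effect called held 221 (11 shared with the 147), 31 and 35, and 93 to 190 with 1 library left out, lowest without running replicate 3 and 94 without sedentary replicate 3. Running effects were called in 10 genes by DESeq2, in 0 with library totals only, in the fits on all 24 libraries, on exercise libraries 5 to 8 and on the exercise libraries alone, and in 1 to 8 with 1 library left out (8 without sedentary replicate 1, 3 without running replicate 4, 2 without running replicate 1, TAC replicate 2 or sham replicate 3). The labels tie replicate numbers to no shared batch, and the correlations of same-numbered samples (0.044 to 0.432 in the exercise hearts, -0.024 to 0.240 in the TAC and sham hearts) were not all over 0.1, so the numbers were not taken as pairs; not every sample correlated best with its own number. With a replicate block the difference was called in 3658 genes, running in 16, and the class with neither effect held 235; Ppargc1a (-0.951, adjusted p = 3.1e-06) and Per2 (-2.46, 0.0469) were called and Dbp (-2.19, 0.0786) was not (edgeR). TAC calls ranged from 3858 to 4878 with 1 library left out. The mitochondrial share differed by -11.58 to -7.75 points with 1 library left out, missing the threshold, adjusted over both shares, in 13 of 16 omissions, and haemoglobin by 0.00033 to 0.02432 points. Without the mitochondrial ribosomal RNAs the mitochondrial share differed by -7.35 points (exact permutation p = 0.000408, adjusted 0.000816). Of 222 named genes 194 were called, and 114 of these in each of 28 settings; library totals only lost 54, exercise libraries 5 to 8 lost 36 and libraries 1 to 4 lost 18. The value of Eef1a2, a translation factor, turned to 0.084 with library totals only. The running effect within each part of the exercise libraries was an alternative chosen after seeing the data. Depth limits genes near 1 CPM, such as Npas2, Cx3cr1 and Dusp5. Where no cause is given above, the cause was not tested.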

Other observations

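Several other lists had members called, beside 9.5% of all genes positive and 9.56% negative. Of 36 cell cycle genes 9 were positive and 2 negative, with a median of 0.40. Anln, which encodes the cytokinesis protein anillin, was at 1.85 to 3.45 CPM in TAC hearts and 0.62 to 1.118 CPM in sham hearts, and its difference was 2.19 ± 0.43 (adjusted p = 0.00126, edgeR). Cenpf, a kinetochore protein, lay on the other side, with 4.14 to 6.87 CPM in TAC hearts and 10.8 to 27.9 CPM in all others, and a difference of -1.41 ± 0.26 (adjusted p = 0.000972, edgeR). Of 16 secreted Wnt regulators and receptors 7 were positive and 0 negative (median 0.84). Sfrp2, a secreted Wnt antagonist of fibroblasts, was at 11.8 to 16.7 CPM in TAC hearts and 0.833 to 2.13 CPM in all others, with a difference of 3.47 ± 0.35 (adjusted p = 1.59e-06, edgeR). Its relatives Frzb and Sfrp1 differed by 2.78 ± 0.26 and 2.15 ± 0.27.

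Of 28 TGF-beta pathway genes 13 were positive and 1 negative (median 0.66), with Fstl1, a secreted glycoprotein, at 2.44 ± 0.20 and the ligand Tgfb3 at 1.695 ± 0.20. Of 19 complement genes 11 were positive and 1 negative (median 0.63): Cd55, an inhibitor of the cascade, differed by 1.32 ± 0.20 and Cd59a, which blocks its terminal complex, by -0.95 ± 0.21. Of 32 antioxidant and redox genes 4 were positive and 6 negative, with a median of -0.20 that was 0.28 with library totals only, 0.20 below all genes, where 9 were positive and 0 negative. Nox4, an oxidase that makes hydrogen peroxide, differed by 3.29 ± 0.48 and the superoxide dismutases Sod1 and Sod2 by -0.67 ± 0.13 and -0.94 ± 0.19. Of 34 genes of heat shock and endoplasmic reticulum stress 1 was positive and 5 negative, a share of 17.6% beside 19.1% of all genes; with library totals only 11 were positive and 1 negative. The mitochondrial chaperonin Hspd1 differed by -0.84 ± 0.14. With library totals only, Sod1, Sod2, Cd59a and Hspd1 were not called (adjusted p = 0.511, 0.149, 0.125 and 0.227). In the calcineurin list 2 of 24 were positive and 4 negative (7 and 1 with library totals only); Rcan1, a feedback inhibitor whose transcript follows calcineurin activity, differed by 2.26 ± 0.36 (TAC 1.66, running -0.60; adjusted p = 0.000664, edgeR).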
